A study of Mus musculus with 6 samples.

Results

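Transcripts of 10 interferon-induced antiviral genes, Ifit1, Ifit2, Ifit3, Rsad2, Cmpk2, Bst2, Samhd1, Isg20, Ifi44 and Ifi27l2a, were followed in mouse hematopoietic stem cells (HSCs), the bone marrow cells that renew the blood. The genes were chosen by name, with earlier results of these data known. Shares of the 10 genes set beside all genes are therefore not independent of that choice. Every non-control probe whose RefSeq accession maps to one of the 10 symbols was taken, which gave 13 of the 55681 probes on the array. Cmpk2, Samhd1 and Isg20 had a pair of probes each and the other 7 genes had 1. All 13 probes were bright enough to be tested, as were 31802 probes of 22630 genes in all. Where a gene had a pair, the brighter probe stands for it and the second is given beside it.

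The groups were Cdk6-/- HSCs after polyI:C, wild-type HSCs after polyI:C, Cdk6-/- HSCs without treatment and wild-type HSCs without treatment. CDK6 is a kinase that drives cells through the early cell cycle, and polyI:C is a synthetic double-stranded RNA that makes an animal produce type I interferon. There were 6 arrays, 3 per treatment, and each compared a Cdk6-/- sample, labelled with the red dye (Cy5), with a pool of sorted wild-type cells given the same treatment, labelled with the green dye (Cy3). The same pool was hybridised on all 3 arrays of a treatment, so each treatment had 1 wild-type sample, and the spread of its 3 readings is technical. Strain, age, sex, the dose and timing of polyI:C, the design of the Cdk6 allele and the number of mice behind a sample or a pool are not given in the sources used here. Apart from the word biological and differing numbers in the sample titles, not explained, nothing states that the Cdk6-/- samples came from separate animals. The title of untreated array 3 is written in another format from the rest. The p-values measure the spread between these Cdk6-/- samples and their arrays. They hold no spread between wild-type samples, since the 3 arrays of a treatment share 1 pool. A departure of that pool would enter all 3 ratios, and this limit applies to every p-value of a ratio or of their difference. The dyes were not swapped on any array. A dye bias of a probe and a difference between genotypes therefore cannot be told apart in a ratio. Such a bias cancels in the change of a ratio with treatment only if it is equal on all arrays and at all signal levels. Whether it is equal was not tested.

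Type I interferon binds a receptor present on nearly all cells and activates kinases attached to it. The signal reaches the nucleus and acts through a short element, the interferon-stimulated response element, in the promoters of its target genes. The targets include enzymes and binding proteins that block viruses at entry, translation, genome copying or budding. In bone marrow, interferon is known to drive normally dormant HSCs into cycle, and these transcripts serve as a readout of that signal.

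Depth of measurement was set by signal over background, and between 47% and 76.5% of spots were well above background in the Cdk6-/- channel, against 54.4% to 75.6% in the wild-type channel, with no saturated spot. The Cdk6 probe, whose place relative to the deleted part is not known, checks nothing: its log2 level was 8.15, 7.90 and 6.79 in the Cdk6-/- samples after polyI:C, against 8.41, 8.34 and 8.06 in the pool, and it was not well above background on the untreated arrays. PolyI:C array 3 gave both upper values, against 47% and 51.8% in the Cdk6-/- channel of polyI:C arrays 1 and 2. All 13 HSC markers looked up, among them Kit, Procr, Slamf1 and Mecom, were well above background in both channels of every array. On polyI:C arrays 1, 2 and 3 their median level was 11.59, 11.44 and 10.34 in Cdk6-/- samples and 11.08, 11.22 and 10.39 in the pool. Monocyte and macrophage markers had 9.36, 9.095 and 11.01 in Cdk6-/- samples and 8.73, 8.67 and 8.82 in the pool. Markers of other cell types were also present, and their values are given below beside the results. Xist, which is transcribed on the inactive X chromosome, had a genotype ratio that set polyI:C array 3 (-3.42) and untreated array 3 (-3.98) apart from the other 4 arrays (0.42 to 1.87). Over all genes, polyI:C array 3 correlated with the other polyI:C arrays at r = 0.13 and 0.22, against 0.56 between those, and the untreated arrays correlated at 0.49 to 0.54. Calls that are lost without these arrays are given with and without them.

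In wild-type cells the antiviral genes were higher after polyI:C, most of all the Ifit genes, Bst2 and Ifi44, and least Rsad2, Isg20 and Samhd1. On the log2 scale the polyI:C pool exceeded the untreated pool by 3.57 for Ifit1 (11.9-fold), 3.10 for Bst2 (8.55-fold), 2.59 for Ifit3 (6-fold), 2.36 for Ifit2, 2.11 for Ifi44 (4.33-fold) and 1.76 for Cmpk2 (3.39-fold). The difference was 0.60 for Ifi27l2a, 0.51 for Rsad2, 0.48 for Isg20 and 0.35 for Samhd1. For Ifit2 the untreated pool was well above background on 1 of 3 arrays, and the difference was 3.50 with processed signals, so its size is uncertain. Ifit1 was well above background on 2 of 3 untreated arrays in each channel. Its probe therefore passed the filter through the polyI:C arrays alone, where it is high, and its place in these counts is not independent of the filter. With 1 pool per treatment these wild-type differences carry no test. Of the 10 genes, 6 were at least 1 log2 unit higher, against 4.18% of all genes, and the median was 1.94 over the 10 genes and 0.00 over all genes.

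In Cdk6-/- samples all 10 genes also averaged higher after polyI:C. Their log2 level after polyI:C exceeded the untreated level by 2.50 ± 0.63 for Ifit1 (SE, 3 samples against 3), 2.18 ± 0.39 for Bst2, 2.11 ± 0.38 for Ifit3, 1.77 ± 0.44 for Ifi27l2a, 1.31 ± 0.44 for Ifi44, 1.29 ± 0.30 for Cmpk2 and 1.25 ± 0.46 for Ifit2. The difference was 0.35 ± 0.32 for Rsad2, 0.26 ± 0.31 for Samhd1 and 0.18 ± 0.33 for Isg20. None of the 10 passed an adjusted p of 0.05 in limma (the lowest was 0.0858, for both Ifit3 and Bst2), and 7 had an unadjusted p under 0.05, as did 10.3% of all genes. In that comparison 0.163% of all genes were called, 0.106% as higher. The Cdk6-/- levels after polyI:C and without treatment did not overlap for 6 of the 10 genes, namely Ifit1, Ifit3, Cmpk2, Bst2, Ifi44 (by 0.01) and Ifi27l2a, all higher after polyI:C, against 9.19% of all genes. Ifit1 is counted here although its probe passed the filter through the polyI:C arrays alone. The median difference was 1.30 over the 10 genes and 0.03 over all genes. With the 2 arrays low in Xist left out, these medians were 1.53 and -0.01. Markers of other cell types differed in the same comparison, with a median of 1.46 over 9 T and NK cell markers (1 called as higher), 1.01 over 8 megakaryocyte markers (2 called as higher), -1.23 over 8 B cell markers, -1.06 over 9 erythroid markers (1 called as lower) and -0.48 over the 13 HSC markers, and their part in the result was not tested. In whole cell samples, fewer cells of a type and less RNA per cell cannot be told apart.

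**Figure D1:**
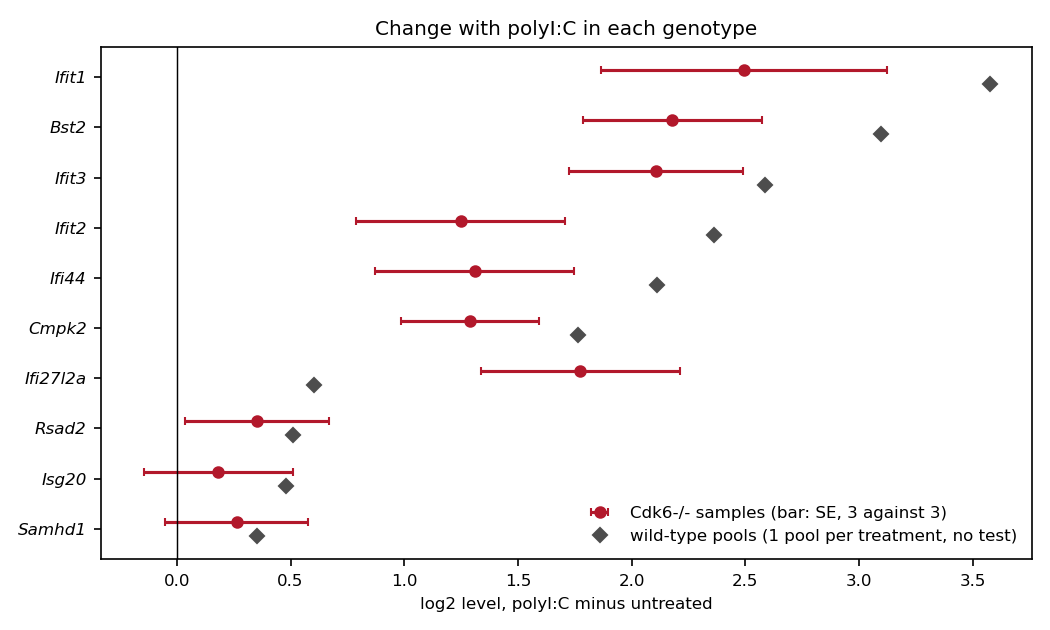
Log2 level after polyI:C minus the untreated level (x axis) for each gene (y axis), in Cdk6-/- samples (red points, bar: SE, 3 samples against 3) and between the wild-type pools (grey diamonds, 1 pool per treatment, no test). Ifi27l2a has the red point to the right of the diamond (1.77 in Cdk6-/- samples, 0.60 between the pools), and the other 9 genes have it to the left. The brighter probe is drawn. The second probes, not drawn, gave 1.58 in Cdk6-/- samples and 1.56 between the pools for Cmpk2, 0.47 and 0.22 for Samhd1, and 0.51 and 1.01 for Isg20.

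Some of the genes whose levels differed most with polyI:C have promoters that carry the core of the interferon-stimulated response element. RefSeq promoter windows (GRCm38.p6, 250 bases before to 50 after each start) were available for 9 of the 10 genes, in 12 windows, with none for Ifi27l2a. They were searched on both strands, with overlapping matches counted, for GAAA followed after any 2 bases by another GAAA, which on the opposite strand reads TTTC, any 2 bases, TTTC. The motif was found in the windows of Ifit1, Ifit3, Rsad2 and Bst2, against 3.44% of all 32851 windows and 3.99% of all 27025 genes. The 200 bases before the start of these 4 genes follow, 5′ to 3′ on the strand of the gene, because they hold every match found, and capitals mark the matches. They lie at chr19:34640689-34640888 on the plus strand (Ifit1), chr19:34583329-34583528 on the plus strand (Ifit3), chr12:26456453-26456652 on the minus strand (Rsad2) and chr8:71537473-71537672 on the minus strand (Bst2).
Ifit1: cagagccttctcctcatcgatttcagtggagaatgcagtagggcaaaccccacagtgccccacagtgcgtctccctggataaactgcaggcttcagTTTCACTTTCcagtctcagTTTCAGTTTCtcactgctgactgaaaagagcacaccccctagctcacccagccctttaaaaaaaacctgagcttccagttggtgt
Ifit3: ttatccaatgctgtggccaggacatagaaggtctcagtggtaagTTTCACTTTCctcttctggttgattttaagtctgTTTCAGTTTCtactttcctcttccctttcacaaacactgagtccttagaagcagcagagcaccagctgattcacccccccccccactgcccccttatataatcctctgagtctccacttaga
Rsad2: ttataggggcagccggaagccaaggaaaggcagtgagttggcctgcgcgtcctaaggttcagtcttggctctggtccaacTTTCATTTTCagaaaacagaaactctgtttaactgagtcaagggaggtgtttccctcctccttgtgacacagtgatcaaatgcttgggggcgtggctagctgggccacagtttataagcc
Bst2: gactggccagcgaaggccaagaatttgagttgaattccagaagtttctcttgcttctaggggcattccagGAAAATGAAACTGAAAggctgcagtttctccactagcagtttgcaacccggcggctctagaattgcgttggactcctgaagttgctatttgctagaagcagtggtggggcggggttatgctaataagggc
Ifit1 and Ifit3 hold the same pair of matches, TTTCACTTTC upstream of TTTCAGTTTC, and counted from the start they begin at -104 and -85 in Ifit1 and at -156 and -122 in Ifit3. In Bst2 the matches overlap, at -130 and -124, and Rsad2 has 1 match, at -120. Between the wild-type pools, the genes with a match included those with the 3 largest differences (Ifit1, Bst2 and Ifit3) and also Rsad2, with 0.51, while Ifit2, Ifi44 and Cmpk2, without a match in these windows, differed by 2.36, 2.11 and 1.76. A match is a description of the letters in the window and was not tested as a binding site.

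The comparison between genotypes after polyI:C asked how strongly Cdk6-/- HSCs express these genes when interferon is induced. All 10 genes averaged lower in Cdk6-/- samples than in the pool. The median log2 ratio of Cdk6-/- over wild type was -0.46 over the 10 genes, against -0.02 over all genes. Cmpk2 was the 1 gene that passed the test, in a comparison where limma called 0.968% of all genes at an adjusted p under 0.05, 0.65% as lower. The ratio was below 0 on all 3 polyI:C arrays for 8 of the 10 genes, the exceptions being Bst2 and Ifi27l2a, against 21.6% of all genes. These directions rest on the loess normalization: with each array centred on its median instead, the median over the 10 genes was 0.29 against 0.21 over all genes, and Ifit3, Rsad2, Bst2, Samhd1, Isg20, Ifi44 and Ifi27l2a turned positive. Erythroid markers were also lower in Cdk6-/- samples after polyI:C, with medians over 9 markers of -1.73, -0.28 and -1.62 on arrays 1, 2 and 3 (3 of 9 called as lower), beside medians over the 10 antiviral genes of -0.50, -0.29 and -0.57. Array 2 was the least low in both. Granulocyte markers were higher in this comparison (median 0.87, 11 of 11 above 0). So were monocyte and macrophage markers (median 0.70, 10 of 11 above 0, 1 called as higher). The other marker lists had medians of -0.11 to 0.32. The part of any of these cells in the result was not tested. Among all genes, loess gave 72 called as higher and 147 as lower, and median centring 2345 and 238.

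Before treatment the same genes lay on both sides of the wild-type pool. The fitted ratio was above 0 for 5 genes (Ifit2, Bst2, Ifit1, Ifi44 and Ifit3) and below 0 for the other 5, with a median of -0.08 over the 10 genes and -0.05 over all genes. Ifi27l2a was the 1 gene that passed the test, as lower in Cdk6-/- samples, in a comparison where 13% of all genes were called, 9.93% as lower (2248 genes) and 3.05% as higher (691 genes). With median centring the split over all genes was 1330 lower and 4876 higher, and 4 of the 10 were called as higher (Ifit1, Ifit2, Bst2 and Ifi44). The ratio was below 0 on all 3 untreated arrays for 4 genes (Rsad2, Cmpk2, Samhd1 and Ifi27l2a), against 28.3% of all genes, and above 0 on all 3 for another 4 (Ifit1, Ifit2, Bst2 and Ifi44), against 20.9%. On untreated array 2 the Ifit1 ratio (0.22) came from a spot well above background in neither channel.

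**Figure D2:**
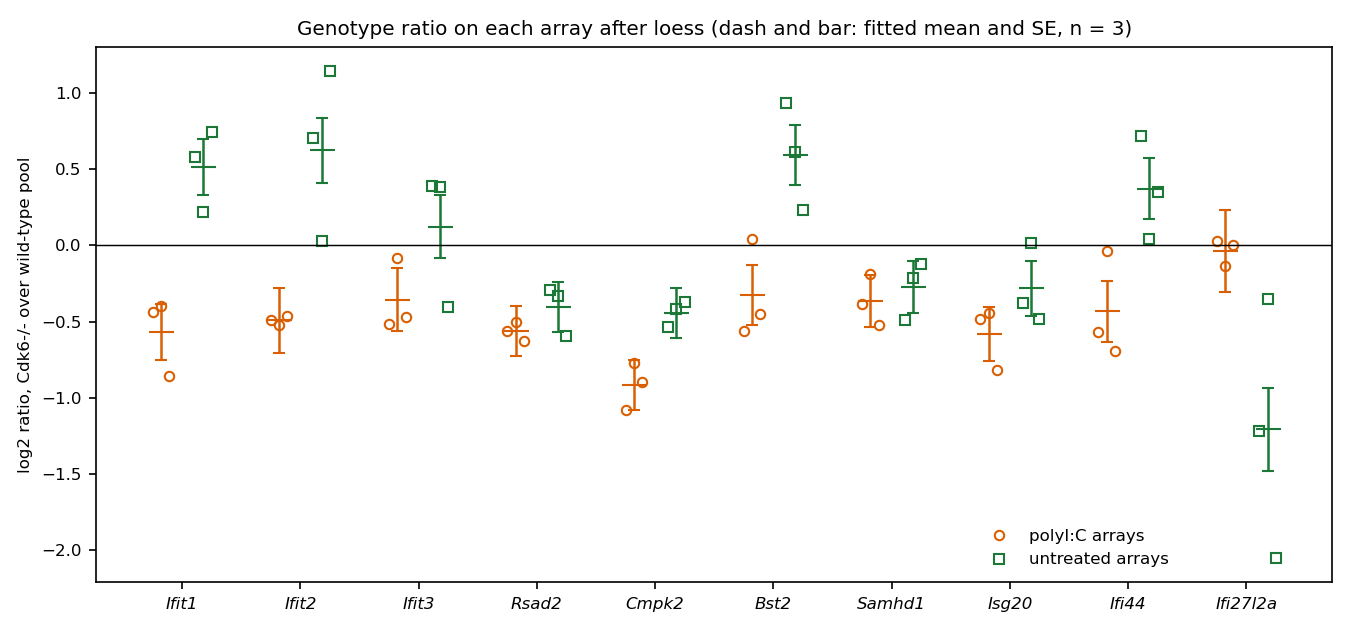
Log2 ratio of Cdk6-/- over the wild-type pool after loess (y axis) for each gene (x axis) on each polyI:C array (orange circles) and untreated array (green squares), with the fitted mean and SE (dash and bar, n = 3). All fitted polyI:C means lie below 0, Ifit1, Ifit2, Bst2 and Ifi44 have untreated ratios above 0, and Ifi27l2a spreads from -0.35 to -2.05 on the untreated arrays.

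The Ifit genes encode proteins that bind viral RNA and hold back its translation, and Ifit1 recognises RNA with a foreign cap. Ifit1 had log2 levels of 11.91, 11.64 and 10.74 in Cdk6-/- samples after polyI:C, against 12.35, 12.04 and 11.60 in the wild-type pool. Without treatment it had 9.62, 7.41 and 9.78 in Cdk6-/- samples, against 9.04, 7.19 and 9.04 in the pool, and on untreated array 2 neither channel was well above background. Every Cdk6-/- sample was thus below the pool on its own array after polyI:C and above it without treatment, although the levels of Cdk6-/- samples and pool overlapped in both conditions. The log2 ratio averaged -0.56 ± 0.25 after polyI:C (SD, n = 3), with an adjusted p of 0.21 in limma, and 0.51 ± 0.27 without treatment (SD, n = 3), with an adjusted p of 0.0943. The same RNA of the untreated pool gave 9.04, 7.19 and 9.04, so the Ifit1 spot of untreated array 2 was dim in both channels. Without that array the wild-type difference with polyI:C was 2.96 and the Cdk6-/- difference 1.73 (adjusted p = 0.363 in limma).

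Ifit2, whose protein binds AU-rich RNA and can promote cell death, followed a similar course at a lower signal. It had 9.71, 9.43 and 8.29 in Cdk6-/- samples after polyI:C, against 10.20, 9.95 and 8.75 in the pool, and 7.94, 7.33 and 8.42 in untreated Cdk6-/- samples, against 7.23, 7.31 and 7.27 in the untreated pool. The untreated pool was well above background on 1 of its 3 arrays, so its level there is close to a bound. The polyI:C ratios were -0.49, -0.52 and -0.46, the tightest of the 10 genes, and the untreated ratios were 0.71, 0.03 and 1.14, so untreated array 2 stood at the pool's level and the others above it. The mean ratio was -0.49 ± 0.03 after polyI:C (SD, n = 3; adjusted p = 0.356 in limma) and 0.63 ± 0.56 without treatment (SD, n = 3; adjusted p = 0.0822).

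Ifit3, which bridges the other Ifit proteins to antiviral signalling, was brighter and showed no ratio that passed the test. Its polyI:C levels were 12.56, 13.15 and 12.42 in Cdk6-/- samples, against 13.07, 13.24 and 12.88 in the pool, and its untreated levels were 10.98, 10.81 and 10.01 in Cdk6-/- samples, against 10.59, 10.43 and 10.42 in the pool. Untreated array 3, one of the arrays low in Xist, was the only untreated array below the pool (ratio -0.41), and the others were above it (0.39 and 0.38). The mean ratio was -0.36 ± 0.24 after polyI:C (adjusted p = 0.504 in limma) and 0.12 ± 0.46 without treatment (adjusted p = 0.738; SD, n = 3 each). Ifit3b, a close copy of Ifit3 that neighbours it on chromosome 19 and whose RNA could reach the same probe, had fitted ratios of 0.05 after polyI:C and 0.34 without treatment (adjusted p = 0.94 and 0.26), and it is given for its similarity and not for its values.

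Rsad2 and Cmpk2 are neighbours on chromosome 12. Rsad2 encodes viperin, which makes a chain-terminating nucleotide, and Cmpk2 encodes the mitochondrial kinase that supplies the CTP from which viperin makes it. Cmpk2 had log2 levels of 11.99, 12.43 and 12.20 in Cdk6-/- samples after polyI:C, against 13.07, 13.20 and 13.09 in the wild-type pool. Every Cdk6-/- sample was below every reading of the pool. Without treatment it had 10.80, 10.97 and 10.98 in Cdk6-/- samples, against 11.33, 11.39 and 11.35 in the pool, again without overlap and with a smaller gap. How many of all genes lacked overlap between genotypes was not counted, here or for the other genes. The pool readings of a treatment repeat the same sample. The ratio was -0.92 ± 0.16 after polyI:C (SD, n = 3), or 0.53 of the wild-type level, with a 95% interval of -1.28 to -0.55 and an adjusted p of 0.0346 in limma. Without treatment it was -0.44 ± 0.09 (SD, n = 3), with a 95% interval of -0.80 to -0.08 and an adjusted p of 0.105. With median centring the untreated ratio was -0.01 (adjusted p = 0.971). The treated minus untreated ratio of -0.47 did not pass the test (adjusted p = 0.342).

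The call on Cmpk2 held in a minority of the settings tried. The ratio stayed below 0 in all of them, but the adjusted p was 0.44 with median centring (ratio -0.29), 0.119 with the scanner software's processed signals (-0.88), 0.0636 with the mean of both probes (-0.76), 0.117 without both arrays low in Xist and 0.186, 0.293 and 0.0663 without polyI:C array 2, 1 and 3. The second Cmpk2 probe gave polyI:C ratios of -0.66, -0.46 and -0.68 and untreated ratios of -0.86, -0.52 and -0.46. In a fit over all probes this second probe was not called after polyI:C (-0.60, adjusted p = 0.182 in limma) and was called as lower without treatment (-0.61, adjusted p = 0.0444), where 9.52% of all probes were called as lower. After loess both probes were below the pool on all 6 arrays, and they differ in which treatment passed the test.

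Rsad2 differed little between treatments. It had 13.64, 14.23 and 13.91 in Cdk6-/- samples after polyI:C, against 14.20, 14.74 and 14.54 in the pool, and 13.67, 13.65 and 13.41 in untreated Cdk6-/- samples, against 13.96, 13.99 and 14.001 in the untreated pool. All 6 Cdk6-/- samples were below the pool on their own arrays, with ratios of -0.56, -0.50 and -0.62 after polyI:C and -0.29, -0.33 and -0.59 without treatment. The ratio averaged -0.56 ± 0.06 after polyI:C (adjusted p = 0.162 in limma) and -0.41 ± 0.16 without treatment (adjusted p = 0.132; SD, n = 3 each). In order of level, the polyI:C pool stood first, above and clear of the untreated pool, which overlapped with the polyI:C-treated Cdk6-/- samples, and these overlapped with the untreated Cdk6-/- samples.

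Samhd1, which cleaves deoxynucleotides and so starves viral polymerases, and Isg20, an exonuclease that degrades single-stranded RNA, also differed little between treatments. Samhd1 had 13.72, 13.69 and 13.22 in Cdk6-/- samples after polyI:C, against 14.10, 13.87 and 13.74 in the pool, and 13.14, 13.24 and 13.46 in untreated Cdk6-/- samples, against 13.63, 13.45 and 13.58 in the untreated pool. After polyI:C every Cdk6-/- sample was below every reading of the pool, though narrowly (highest 13.72 against lowest 13.74), and without treatment they overlapped. The ratios were below 0 on all 6 arrays and averaged -0.36 ± 0.17 after polyI:C (adjusted p = 0.396 in limma) and -0.27 ± 0.19 without treatment (adjusted p = 0.327; SD, n = 3 each). The second Samhd1 probe disagreed after polyI:C, with ratios of -0.07, 0.06 and -0.02.

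Isg20 had 13.46, 13.68 and 13.03 in Cdk6-/- samples after polyI:C, against 13.94, 14.12 and 13.84 in the pool, and 13.23, 13.44 and 12.94 in untreated Cdk6-/- samples, against 13.61, 13.43 and 13.43 in the untreated pool. After polyI:C every Cdk6-/- sample was below every reading of the pool, and without treatment the groups overlapped. The ratio averaged -0.58 ± 0.21 after polyI:C (adjusted p = 0.187 in limma) and -0.28 ± 0.26 without treatment (adjusted p = 0.338; SD, n = 3 each). The second Isg20 probe gave -0.51, -0.53 and -0.98 after polyI:C (mean -0.67, adjusted p = 0.146 over all probes) and a difference between the pools of 1.01, larger than the 0.48 of the brighter probe.

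**Figure D3:**
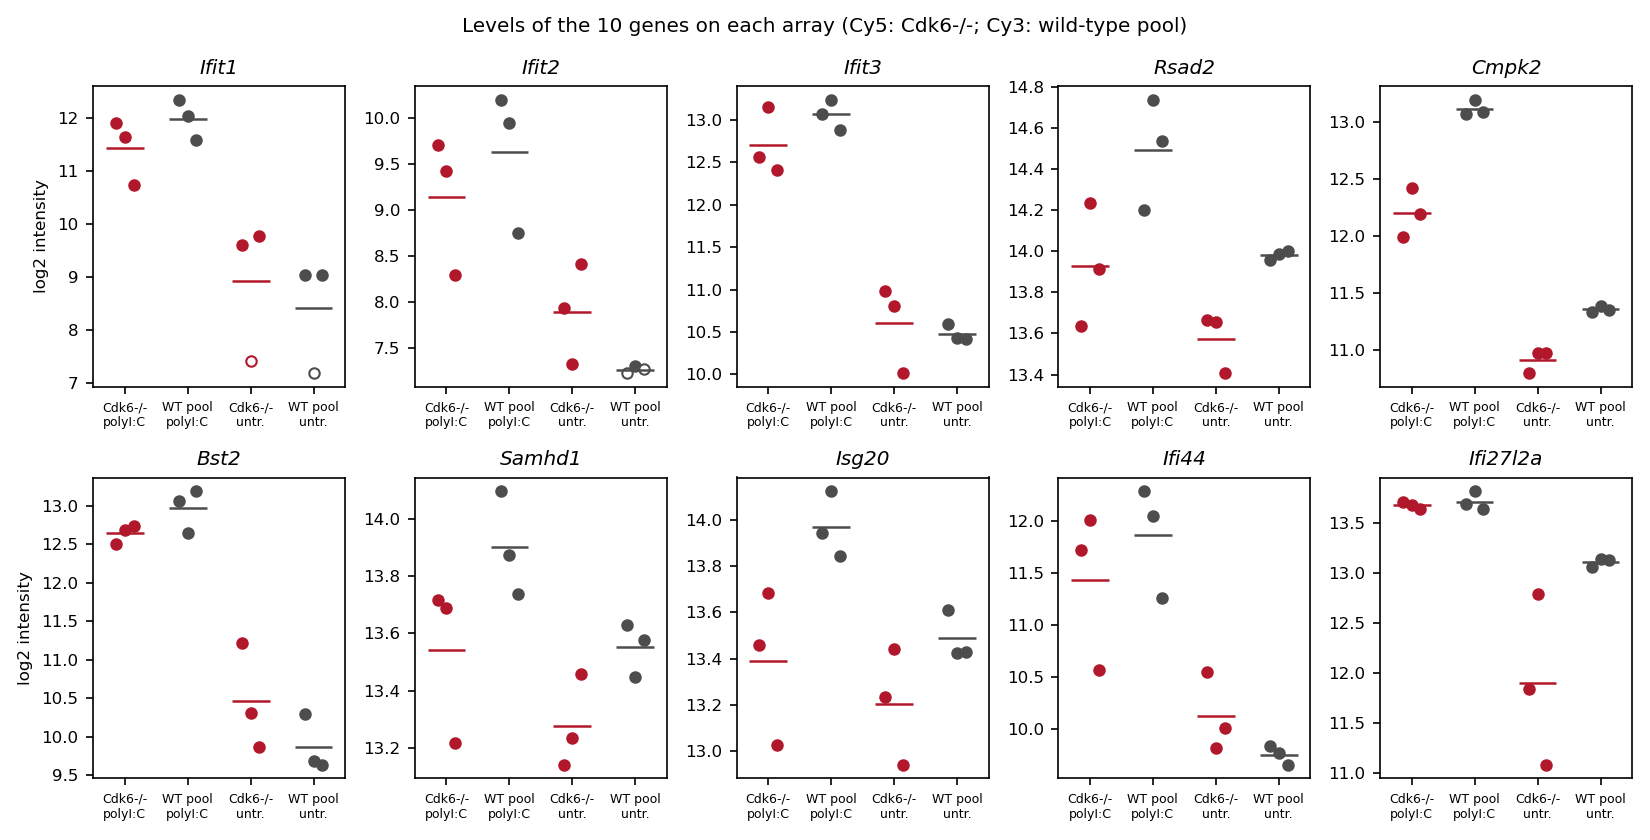
Log2 intensity after normalization (y axis, a separate scale for each gene) in Cdk6-/- samples (red, Cy5) and the wild-type pool (grey, Cy3) after polyI:C and without treatment, with 1 point per array, a line at the mean, and open circles where the spot was not well above background. For Cmpk2, Samhd1 and Isg20 the 3 Cdk6-/- points after polyI:C lie below the 3 readings of the pool, and for Ifi27l2a the untreated Cdk6-/- samples spread from 11.09 to 12.79 below a tight pool. The 3 pool readings repeat the same sample, and the share of all genes without such overlap was not counted.

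Bst2 encodes tetherin, a membrane protein that holds budding virus particles at the cell surface, and Ifi44 is an interferon-induced protein of less settled function. Bst2 had 12.51, 12.68 and 12.74 in Cdk6-/- samples after polyI:C, against 13.07, 12.64 and 13.19 in the pool, and 11.22, 10.30 and 9.87 in untreated Cdk6-/- samples, against 10.29, 9.69 and 9.64 in the untreated pool. Untreated Cdk6-/- samples were above the pool on each of their arrays (ratios 0.93, 0.61 and 0.23), and after polyI:C arrays 1 and 3 were below it (-0.56 and -0.45) and array 2 level with it (0.04). The mean ratio was -0.32 ± 0.32 after polyI:C (adjusted p = 0.535 in limma) and 0.59 ± 0.35 without treatment (adjusted p = 0.0776; SD, n = 3 each).

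Ifi44 had 11.72, 12.01 and 10.56 in Cdk6-/- samples after polyI:C, against 12.29, 12.05 and 11.26 in the pool, and 10.55, 9.82 and 10.01 in untreated Cdk6-/- samples, against 9.83, 9.77 and 9.66 in the untreated pool. On array 2 of both treatments the genotypes differed by 0.04 or less, with ratios of -0.03 after polyI:C and 0.04 without treatment, and the other arrays gave -0.57 and -0.70 after polyI:C and 0.72 and 0.35 without treatment. The mean ratio was -0.43 ± 0.35 after polyI:C (adjusted p = 0.39 in limma) and 0.37 ± 0.34 without treatment (adjusted p = 0.257; SD, n = 3 each).

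Ifi27l2a encodes a small mitochondrial protein of the Isg12 family. By the brighter probes its treated minus untreated ratio was above 0 (1.17, adjusted p = 0.156 in limma), and that of the other 9 genes below 0. The second probes of Cmpk2 (0.01) and Samhd1 (0.25) were also above 0. After polyI:C Ifi27l2a had 13.72, 13.69 and 13.64 in Cdk6-/- samples, against 13.69, 13.82 and 13.64 in the pool, so the genotypes overlapped. Without treatment it had 11.84, 12.79 and 11.09 in Cdk6-/- samples, against 13.06, 13.14 and 13.14 in the pool, and every Cdk6-/- sample was below every reading of the pool. The ratio averaged -0.04 ± 0.09 after polyI:C (SD, n = 3; adjusted p = 0.973 in limma, 95% interval -0.64 to 0.57). Without treatment it averaged -1.21 ± 0.85 (SD, n = 3), or 0.433 of the wild-type level, with a 95% interval of -1.81 to -0.61 and an adjusted p of 0.0177. The 3 untreated ratios of -1.22, -0.35 and -2.05 differ widely, and the call was lost without untreated array 1 (-1.20, adjusted p = 0.0758), without array 3 (-0.78, adjusted p = 0.0996), without both arrays low in Xist (-0.78, adjusted p = 0.108) and with median centring (-0.61, adjusted p = 0.12).

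Markers of several other cell types moved with Ifi27l2a on the untreated arrays. On untreated arrays 1, 2 and 3 the median genotype ratio stood at -0.69, -0.21 and -1.54 over 11 granulocyte markers, -0.57, 0.04 and -1.15 over 11 monocyte and macrophage markers and -1.50, -1.22 and -2.14 over 8 B cell markers. It stood at -0.59, -0.34 and -0.62 over 9 erythroid markers and at -1.19, -0.84 and -1.47 over 8 endothelial and stromal markers. In each of these 5 lists array 3 was the lowest and array 2 the highest, as for Ifi27l2a. The megakaryocyte (-1.01, -0.43 and -0.36), plasmacytoid dendritic cell (0.04, -0.51 and -0.11) and T and NK cell (0.16, -0.22 and -0.14) medians did not follow that order. The HSC median (0.01, -0.12 and 0.38) had the reverse order, highest on array 3 and lowest on array 2. As lower without treatment, 4 of 11 granulocyte, 3 of 11 monocyte and macrophage, 6 of 8 B cell, 4 of 9 erythroid and 6 of 8 endothelial and stromal markers passed the test, against 9.93% of all genes. The median level of the granulocyte markers was 14.57, 14.81 and 13.78 in untreated Cdk6-/- samples, against 15.50, 15.26 and 15.65 in the pool, so their RNA was abundant in both. The monocyte and macrophage markers had 9.62, 10.52 and 9.43 in untreated Cdk6-/- samples, against 10.36, 10.55 and 10.36 in the pool, and the B cell markers 9.91, 9.71 and 8.39, against 10.63, 10.58 and 10.72. After polyI:C the median ratios were 0.54, 0.69 and 1.36 (granulocyte), 0.26, 0.34 and 1.03 (monocyte and macrophage) and -0.53, 0.27 and -0.09 (B cell), while Ifi27l2a stood at 0.03, -0.13 and 0.00. Their part in the Ifi27l2a result was not tested.

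**Figure D4:**
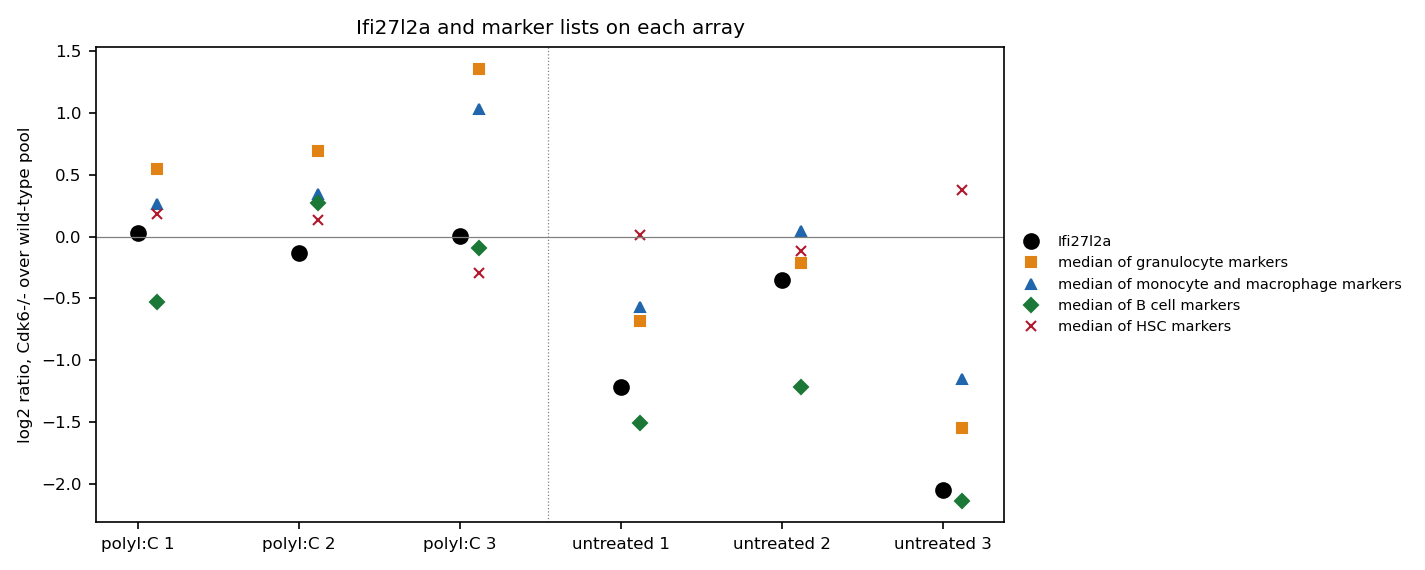
Log2 ratio of Cdk6-/- over the wild-type pool (y axis) on each array (x axis) for Ifi27l2a (black) and for the median of granulocyte, monocyte and macrophage, B cell and HSC markers. On the untreated arrays Ifi27l2a, granulocyte and B cell medians are lowest on array 3 and highest on array 2, and on the polyI:C arrays Ifi27l2a stays between -0.13 and 0.03. The HSC median on the untreated arrays is highest on array 3 and lowest on array 2.

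The treated minus untreated ratio equals the Cdk6-/- difference with polyI:C minus that of the wild-type pools. A dye bias cancels in it only where that bias is the same on every array and at every signal level, which was not tested. By the brighter probe this difference was below 0 for 9 of the 10 genes and above 0 for Ifi27l2a. It was -1.12 ± 0.30 for Ifit2 (SE; adjusted p = 0.0939 in limma), -1.08 ± 0.26 for Ifit1 (0.0675), -0.92 ± 0.28 for Bst2 (0.13) and -0.80 ± 0.28 for Ifi44 (0.186). Ifit3 (-0.48), Cmpk2 (-0.47), Isg20 (-0.30), Rsad2 (-0.16) and Samhd1 (-0.09) had smaller values, and Ifi27l2a had 1.17 ± 0.38 (adjusted p = 0.156). The second probes gave 0.01 for Cmpk2, 0.25 for Samhd1 and -0.51 for Isg20, so the sign for Cmpk2 and Samhd1 depends on the probe. None of the 10 passed limma's test and 5 had an unadjusted p under 0.05 (16.5% of all genes did), in a comparison where 1.79% of all genes were called, 0.199% as lower. The polyI:C ratios lay below the untreated ratios without overlap for 5 of the 10 genes (Ifit1, Ifit2, Cmpk2, Bst2 and Ifi44), against 8.48% of all genes, and above them for Ifi27l2a, against 14.3%. The ratios of the second Cmpk2 probe overlapped between treatments. The median was -0.48 over the 10 genes and 0.04 over all genes, with median centring -0.24 and -0.05, and without both arrays low in Xist -0.57 and 0.05.

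Arrays of both treatments shared a slide in 2 cases, which gives the same difference within a slide. On slide 1 (polyI:C array 1 against the mean of untreated arrays 1 and 3) it was -1.41 for Ifit2, -1.14 for Bst2, -1.10 for both Ifit1 and Ifi44 and 1.66 for Ifi27l2a. On slide 2 (polyI:C array 2 against untreated array 2) it was -0.55 for Ifit2, -0.57 for Bst2, -0.62 for Ifit1, -0.08 for Ifi44 and 0.21 for Ifi27l2a. For these 5 genes the sign was the same on both slides and the size smaller on slide 2. On slides 1 and 2 the other genes gave -0.51 and -0.47 (Ifit3), -0.63 and -0.36 (Cmpk2), -0.12 and -0.17 (Rsad2), -0.05 and -0.46 (Isg20) and -0.08 and 0.03 (Samhd1), so Rsad2 and Isg20 were larger on slide 2 and Samhd1 changed sign. Without untreated array 2, limma called Ifit2 (-1.41, adjusted p = 0.0399) and Ifi27l2a (1.60, adjusted p = 0.0422).

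**Figure D5:**
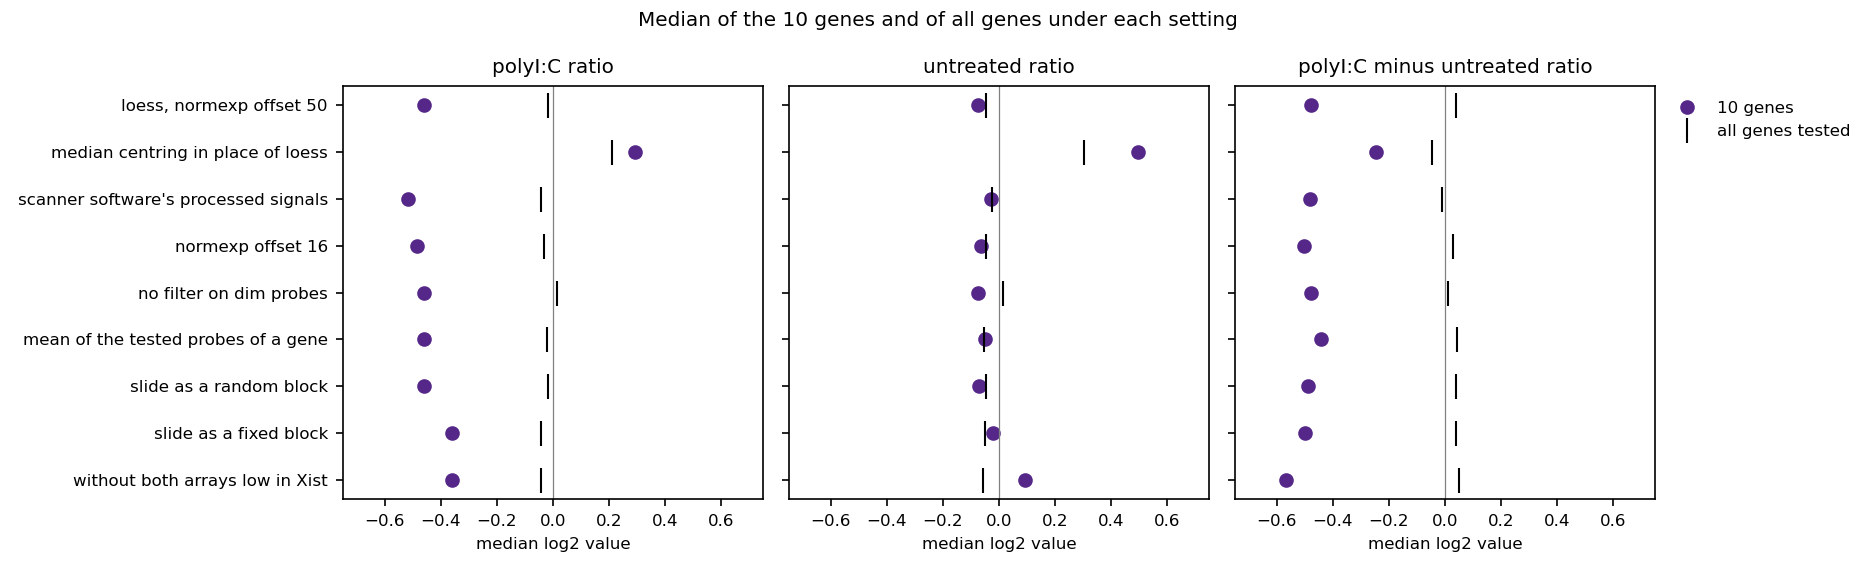
Median log2 value (x axis) over the 10 genes (purple points) and over all genes tested (black ticks) under each processing setting (y axis), for the polyI:C ratio, the untreated ratio and the polyI:C minus untreated ratio. With median centring in place of loess the polyI:C median turns to 0.29, beside 0.21 over all genes, and the difference stays below 0 at -0.24.

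After loess the order of the 4 levels fell into 2 main kinds. For Ifit1, Ifit2, Ifit3, Bst2 and Ifi44 the polyI:C pool stood highest, then the polyI:C-treated Cdk6-/- samples, then the untreated Cdk6-/- samples, and the untreated pool lowest. The upper neighbours overlapped for all 5, and the lower neighbours for all but Ifit2. For Rsad2, Samhd1, Isg20, Cmpk2 and Ifi27l2a the untreated Cdk6-/- samples stood lowest, and for the first 3 of these the untreated pool averaged above the polyI:C-treated Cdk6-/- samples, with overlap. For the brighter Cmpk2 probe no neighbouring levels overlapped. These orders hold for the loess levels only, since median centring turned the polyI:C ratio of 7 of the genes and the untreated ratio of Rsad2, Samhd1 and Isg20.

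The wider interferon response was read from a list of 59 interferon-induced genes that shares no gene with the 10, of which 54 were tested. After polyI:C 0 of 54 passed limma's test in either direction (20 at unadjusted p under 0.05), against 0.968% of all genes called and 13.4% at unadjusted p under 0.05. The ratio was below 0 for 47 and the median was -0.36, against a median of -0.02 over all genes. With median centring 21 were below 0 and 3 were called as higher, where 2345 of all 22630 genes were. The median was then 0.18, beside 0.21 over all genes. The lowest ratios were those of Gbp2, a guanylate-binding protein (-0.82, adjusted p = 0.109), Igtp, an immunity-related GTPase (-0.79, adjusted p = 0.16), and Ifit1bl1, an Ifit1-like gene (-0.75, adjusted p = 0.171). Without treatment 6 rose and 1 fell in Cdk6-/- samples relative to the pool, against 3.05% and 9.93% of all genes, with a median of 0.04. With median centring 14 were called as higher and 0 as lower, where 4876 and 1330 of all 22630 genes were. The median was then 0.46, beside 0.30 over all genes. Without both arrays low in Xist none of the 54 was called (27 were below 0). Herc6, a ligase that attaches ISG15 to proteins (1.15, adjusted p = 0.00631), Irgm1, an immunity-related GTPase (0.83, adjusted p = 0.0147), Iigp1, another GTPase of that kind (0.74, adjusted p = 0.0233), Ifih1, the RNA sensor MDA5 (0.68, adjusted p = 0.0323), and Eif2ak2, the kinase PKR (0.67, adjusted p = 0.0271), were among those that rose. Ifit1bl2, another Ifit1-like gene, fell by 0.76 on the log2 scale (adjusted p = 0.0287). Without untreated array 1, and likewise without untreated array 3, 1 of the 54 was called as higher and 0 as lower. With the mean of a gene's tested probes, 3 were called as higher and 1 as lower. Ifih1 (0.28, adjusted p = 0.398 in limma), Irgm1 (0.50, adjusted p = 0.0883) and Iigp1 (0.63, adjusted p = 0.0614) were then not called.

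In the treated minus untreated ratio 4 of the 54 passed the test, all as lower, against 0.199% of all genes called as lower. The value was -1.86 for Herc6, -1.32 for Iigp1, -1.26 for Ifih1 and -1.13 for Eif2ak2, with adjusted p of 0.0171, 0.032, 0.0388 and 0.0454 in limma. None of the 4 calls held with slide as a fixed block, with both arrays low in Xist left out, or without any 1 of the polyI:C arrays or untreated array 3. Herc6, with values of -1.31 to -2.30 over the settings, had adjusted p of 0.14 without both arrays low in Xist and 0.113 with slide as a fixed block. Herc6 alone was called with median centring, with processed signals and without untreated array 1, and Herc6 and Iigp1 without untreated array 2. With the mean of a gene's tested probes Ifih1 was not called (-0.82, adjusted p = 0.171 in limma). Herc6 had polyI:C levels of 9.27, 10.06 and 8.99 in Cdk6-/- samples, against 10.18, 10.68 and 9.57 in the pool, and untreated levels of 9.55, 9.04 and 9.04 in Cdk6-/- samples, against 7.88, 8.24 and 8.04 in the pool. Untreated Cdk6-/- samples were clear of the pool for Herc6, and on every polyI:C array the Cdk6-/- sample was the lower. The median over the list was -0.38, against -0.48 over the 10 antiviral genes and 0.04 over all genes. In Cdk6-/- samples polyI:C raised 2 of the 54 past the test, against 0.106% of all genes called as higher. They were Irf7, the factor that amplifies interferon production (3.46, adjusted p = 0.0103), and Usp18, which restrains interferon receptor signalling (2.74, adjusted p = 0.0181). The chemokine gene Cxcl10 had the largest value (3.47) without passing (adjusted p = 0.115). The calls on Irf7 and Usp18 were lost without polyI:C array 1, without each of the untreated arrays, and without both arrays low in Xist, where Irf7 stood at 3.27 (adjusted p = 0.107) and Usp18 at 2.76 (adjusted p = 0.117). Usp18 was also not called without polyI:C array 2 (adjusted p = 0.0607) or with processed signals (0.0623). Between the wild-type pools 38 of the 54 were at least 1 log2 unit higher after polyI:C, against 4.18% of all genes, and the median over the list was 1.43. These comparisons share the untreated or the polyI:C arrays and are given side by side only.

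The genes whose pattern was most like that of the 10 were sought by Pearson's r over the 12 channel levels with the mean standardised level of the 10. Among genes with a symbol, Daxx (0.969), Mrpl30 (0.969), Ifit1bl1 (0.964) and Ybx1 (0.962) ranked highest, and 1 transcript without a symbol had 0.973. The 12 levels are not independent, since 6 come from the 2 pools and both channels share an array, so r is a description. The 10 genes themselves had r of 0.76 (Ifi27l2a) to 0.96 (Cmpk2) with their own mean. The interferon list had a median r of 0.867, against 0.00 over all genes, and 13 of its members were among the 100 highest.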

How the data were processed

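Total RNA was amplified (whole transcriptome amplification) and labelled with platinum dyes, per the labels' protocols. Two-colour Agilent arrays were scanned and quantified with Feature Extraction 11.5.1.1, and 5 of 6 headers name mm9 (NCBI37), per the file headers. Each deposited scanner file gives median and processed intensity by channel. It also gives, as deposited, a log10 ratio of red to green, and flags that mark control, outlying and bright spots, which are other than intensity. The deposited value table is on the log2 scale and matched processed Cy5 over processed Cy3 to within 2.5e-06, with column medians of -0.04 to 0.22. The authors' own test is not stated in these sources.

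Median signals were corrected with normexp (offset 50), ratios normalized by loess and channel levels by Aquantile in limma 3.58.1 (R 4.3.3, statmod 1.5.0). The plan named mean signals where held, and the files hold medians. Control spots, and the 0.657% of spots marked as outlying or non-uniform, were left out. Tested probes were well above background in either channel on all 3 arrays of at least 1 treatment, and the brightest stands for its gene. A limma fit over all 6 arrays gave both ratios and their difference, and another over the Cy5 levels gave the change in Cdk6-/- samples, with Benjamini-Hochberg adjustment over all 22630 genes and a threshold of 0.05. An exact permutation test of 3 against 3 cannot go below 0.1 and was not used. The fits were tested on simulated data with known changes, drawn with the spread of the ratios for every comparison. Of changes of 1 log2 unit, 33% were recovered for the untreated ratio and 39% for the polyI:C ratio. For the difference 2% were recovered, and for the change in Cdk6-/- samples 3%. At 2 log2 units the shares were 86%, 90%, 52% and 52%.

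Replicates were numbered by deposition order, so equal numbers link no samples. The members, gene lists and tests were chosen with earlier results of these data known. From the interferon list, the text names the called genes (at most the 5 with the largest values in each direction) and the 3 with the largest values in each comparison. RefSeq tables (GRCm38.p6) named 22244 of the 23839 probes with a RefSeq accession. Alternatives were median centring, processed signals, offset 16, no filter, mean of probes, slide as a block, and leaving out arrays.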

Additional observations from a re-analysis of the deposited data

How the results depend on the processing

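With median centring in place of loess, 6206 genes were called for the untreated ratio, 2583 for the polyI:C ratio and 241 for the difference, against 2939, 219 and 406, and the medians over the 10 genes were 0.49, 0.29 and -0.24. It called 4 of the 10 untreated (Ifit1, Ifit2, Bst2 and Ifi44, as higher) and 0 after polyI:C. It turned the untreated ratio of Rsad2 (0.41), Samhd1 (0.47) and Isg20 (0.45), the polyI:C ratio of Ifit3 (0.31), Rsad2 (0.41), Bst2 (0.33), Samhd1 (0.50), Isg20 (0.27), Ifi44 (0.0088) and Ifi27l2a (0.82), and the difference of Rsad2 (0.00082) and Samhd1 (0.030). Over all genes it moved the median to 0.30 untreated and 0.21 after polyI:C. The call on Cmpk2 after polyI:C was lost (0 of 10 called) with processed signals, offset 16, the mean of probes, slide as a fixed block, both arrays low in Xist left out, and each of 5 single arrays left out, and it held with no filter, slide as a random block and untreated array 2 left out. The cause of these losses was not tested.

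For the polyI:C ratio the count of all genes was 33 with processed signals, 132 with offset 16, 94 with no filter and 0 without both arrays low in Xist (3516 at unadjusted p under 0.05). For the difference it was 176 with processed signals, 253 with no filter, and 0 with slide as a fixed block (4432 at unadjusted p under 0.05) and without both arrays low in Xist (4553). For the change in Cdk6-/- samples, against 37, it was 17 with no filter and with slide as a fixed block, 124 with slide as a random block (1 of the 10, Ifit3, at 2.12), 6 with processed signals minus their 75th percentile and 0 without both arrays low in Xist (4137). Without those arrays 1638 genes and 0 of the 10 were called untreated, with a median of 0.094, and the Samhd1 difference was 0.066. The mean of probes turned that difference to 0.081. The median change in Cdk6-/- samples was 1.72 with slide as a fixed block, and that of the wild-type pools was 2.10 with no normalization between arrays and 2.18 with processed signals.

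Leaving out 1 array at a time gave 1376 to 3426 genes and 0 to 2 of the 10 for the untreated ratio (median -0.16 to 0.094), 7 to 218 genes and 0 to 1 of the 10 for the polyI:C ratio (median -0.55 to -0.36), 6 to 378 genes and 0 to 2 of the 10 for the difference (median -0.59 to -0.40), 0 to 23 genes and 0 of the 10 for the change in Cdk6-/- samples (median 1.14 to 1.71), and a pool median of 1.84 to 2.10, an alternative chosen after seeing the data. The Ifi27l2a polyI:C ratio ran from -0.067 to 0.014, above 0 without polyI:C array 2, and the Ifit3 untreated ratio from -0.012 to 0.39, below 0 without untreated array 1 and without untreated array 2. No paired analysis was possible because replicates were numbered by deposition order and equal numbers link no samples, and slide was fitted as a block in its place. Precision is limited by 3 arrays per treatment, 1 wild-type pool per treatment and, for Ifit1 and Ifit2 untreated, by signal close to background.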
